A study of Mus musculus with 18 samples.

Results

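The levels of 9 identity marker genes of astrocytes were followed through the differentiation of mouse neurospheres (NSPs) into astrocytes. The 9 genes, *Aldh1l1*, *Fabp7*, *Slc14a1*, *Acsbg1*, *Ndrg2*, *Slc4a4*, *Atp1b2*, *Ttyh1* and *Gpr37l1*, were taken by symbol from the 54838 genes of the deposited count table, all 9 were found, and all 9 passed the filter on low counts. The 18 RNA-sequencing libraries fell into 6 conditions with 3 replicates each. NSPs came from neural stem cells of the ventricular zone of wild type C57BL/6J mouse brains at embryonic day 14 and proliferated in serum-free medium with EGF. In the other 5 conditions that medium was replaced with one holding 10% fetal bovine serum, for 24 h, 72 h or 1 week without further treatment, or for 24 h or 72 h with 50 ng/ml of the inflammatory cytokine TNF. No condition held TNF at 1 week. The study describes its data in general as from independent biological experiments, and its stem cells as isolated from single brains, but which libraries shared a brain was not stated, so p-values measure the spread between these libraries, which may be technical. Total RNA of whole cultures was sequenced, and fewer cells of a type cannot be told apart from less RNA per cell.

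Astrocytes supply neurons with metabolites, clear ions and transmitters from the extracellular space and store and oxidise fatty acids, and several of the 9 genes act in some of these tasks. *Fabp7* (brain lipid-binding protein), *Acsbg1* (an acyl-CoA synthetase of the bubblegum family) and *Aldh1l1* (a folate-metabolising dehydrogenase) act in fatty acid and folate metabolism. *Slc14a1* (a urea transporter), *Slc4a4* (a sodium bicarbonate cotransporter) and *Atp1b2* (the glial beta subunit of the sodium pump, also an adhesion molecule) move solutes. *Ttyh1* (a membrane protein of the tweety family), *Gpr37l1* (an orphan G protein-coupled receptor) and *Ndrg2* (a cytoplasmic protein of the NDRG family) are further proteins by which astrocytes are recognised. Several of them, *Fabp7* first of all, are also made by radial glia, the stem cells from which astrocytes arise.

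The levels below are CPM, that is counts per 1000000 counts of a library scaled by its TMM factor, and they compare libraries within a gene. A gene is called higher or lower where the Benjamini-Hochberg adjusted p-value of edgeR's quasi-likelihood test over all 20067 tested genes was under 0.05. The name of the list stands for astrocytes of the mature brain, and the levels here did not follow that name as a group. The highest mean lay in NSPs for 4 genes (*Fabp7*, *Acsbg1*, *Ndrg2* and *Ttyh1*), at 24 h for 2 (*Slc4a4* and *Atp1b2*), at 24 h with TNF for 1 (*Aldh1l1*) and at 72 h for 2 (*Slc14a1* and *Gpr37l1*), and at 1 week for 0 of the 9. These are ranks of means, and some rest on 1 library. For *Aldh1l1* with TNF it was replicate 1 (50.2 CPM against 18.7 and 22.1), for *Atp1b2* replicate 3 (442 against 196 and 162). In edgeR *Aldh1l1* at 24 h with TNF was not called against untreated 24 h (adjusted p = 0.65). Nor was *Atp1b2* between 24 h and 72 h (0.719), or *Acsbg1* between NSPs and 1 week (0.293). The genes are called identity genes only after the list they come from.

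**Figure D1:**
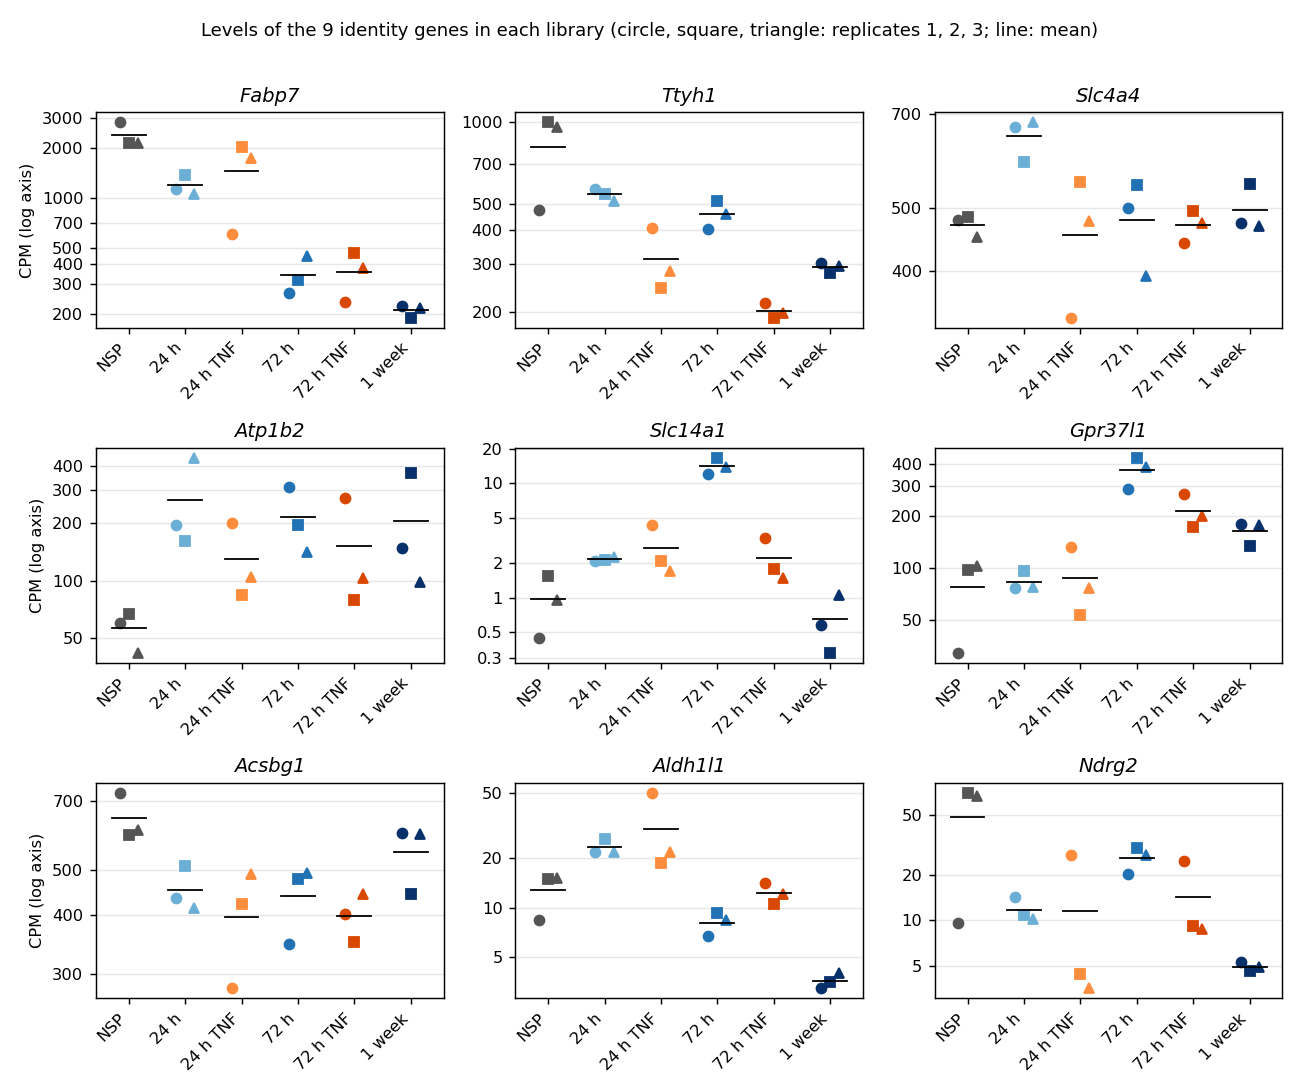
CPM of each identity gene (log axis, scaled separately for each gene) in the 18 libraries of 6 conditions, with circles, squares and triangles for replicates 1, 2 and 3 and a line for the mean. *Fabp7* falls from NSPs to 1 week, *Slc14a1* and *Gpr37l1* peak at 72 h, and replicate 1 of NSPs and of both TNF conditions lies apart from the others in several panels.

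Per library, the deposited counts totalled 12509693 to 22549627 (median 16794798). Replicate 1 stood apart from replicates 2 and 3 in 3 conditions. In NSPs it held 9.58 CPM of *Ndrg2* against 70.1 and 66.8, and its summed level of 8 cell cycle genes was 2612 CPM against 1591 and 1707. In 24 h TNF cells it held 27.0 CPM of *Ndrg2* against 4.40 and 3.54, and its summed level of 8 mural and fibroblast markers, nearly all of it *Acta2*, was 96.2 CPM against 529.9 and 495.9. In 72 h TNF cells the *Ndrg2* values were 24.7, 9.23 and 8.82 CPM and the mural sums 54.0, 188 and 204 CPM. The cause of these differences between libraries was not tested, and values without single libraries are given with the results below. The 8 mural markers summed to between 4.10 and 10.6 CPM in NSPs and between 54.0 and 529.9 CPM in all differentiated libraries. Nearly all of that rise was *Acta2*, and the next marker, *Rgs5*, had its highest mean at 3.18 CPM, at 24 h with TNF. Markers of microglia summed to at most 3.95 CPM over 8 genes, with *C1qa* at 0 in every library, and those of endothelium to at most 7.61 CPM over 6 genes. Of 6 ependymal markers 5 were tested, and all 5 were higher at 72 h than in NSPs and than at 24 h. Their sum lay between 16.6 and 19.6 CPM in NSPs, 18.6 and 21.8 at 24 h, 45.3 and 52.8 at 72 h, and 40.6 and 45.6 at 1 week. Of 12 oligodendrocyte lineage markers 9 were tested, and from 24 h to 72 h 4 were lower and 1, *Cnp*, was higher. The sum of the 12 went from between 210.7 and 221.6 CPM at 24 h to between 407 and 552 at 72 h, and the mean of *Cnp* alone from 108 to 451.5, while *Mobp*, a myelin gene, was at most 0.151 CPM there. Of 10 neuron markers 8 were tested, 6 of them lower and 0 higher at 72 h than in NSPs, and their sum, nearly all of it *Map2*, lay between 1464 and 2105 CPM over all libraries. The part of such cells in the 72 h levels of *Slc14a1* and *Gpr37l1* was not tested. The astrocyte filament gene *Gfap* rose from a mean of 27.1 CPM in NSPs to 899 at 24 h and 2432 at 72 h and stood at 63.4 at 1 week.

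The genes lie on 9 chromosomes of GRCm38. Their positions in GENCODE M21, 1-based, are 6, 90486427 to 90600203 on the forward strand for *Aldh1l1* (ENSMUSG00000030088), 10, 57784881 to 57788450, forward, for *Fabp7* (ENSMUSG00000019874), and 18, 78100091 to 78142119, reverse, for *Slc14a1* (ENSMUSG00000059336). *Acsbg1* (ENSMUSG00000032281) lies on chromosome 9 from 54604877 to 54661870, reverse, *Ndrg2* (ENSMUSG00000004558) on 14 from 51905271 to 51914158, reverse, and *Slc4a4* (ENSMUSG00000060961) on 5 from 88886818 to 89239653, forward. *Atp1b2* (ENSMUSG00000041329) lies on 11 from 69599736 to 69605942, reverse, *Ttyh1* (ENSMUSG00000030428) on 7 from 4119408 to 4136708, forward, and *Gpr37l1* (ENSMUSG00000026424) on 1 from 135160234 to 135167681, reverse. *Ttyh1* shares exon bases with the antisense genes *9430041J12Rik* (180 bases) and *D030047H15Rik* (244 bases), and *Aldh1l1* with antisense *Gm15756* (499 bases) and with *Gm45901* on its own strand (105 bases). Over all libraries *D030047H15Rik* held 5395 counts against 128887 for *Ttyh1*, and *Gm15756* held 11 against 4346 for *Aldh1l1*. The strand setting of the counting was not stated, so reads in these shared bases are uncertain.

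RefSeq promoter windows of GRCm38.p6, 250 bases before to 50 bases after an annotated start, were found for 7 of the 9 genes, in 10 windows. They were read for 6 motifs on both strands. CCAAT, the CCAAT box, had a match in 6 of these 10 windows and in 37.4% of all 32851 windows of the table, and TATAAA (13.6% of all windows) in 1, of *Ndrg2*. For factors that act in astrocyte formation and inflammation, TTCNNNGAA (STAT, 8.3% of all windows) had a match in 1 window, of *Acsbg1*, and the NF-kB motif (8.46%) in 3, of *Acsbg1* and *Ndrg2*. TGANTCA (AP-1, 7.81%) and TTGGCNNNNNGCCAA (NFI, 0.0365%) had none. The windows of 3 genes on which the results below turn are printed, *Fabp7* with a fall across differentiation, *Gpr37l1* with a rise, and *Ttyh1* with a fall under TNF, each 5′ to 3′ on the gene's strand with CCAAT, or ATTGG where it reads on the other strand, in capitals. The windows are chr10:57784673-57784972 (+) for *Fabp7*, chr7:4119280-4119579 (+) for *Ttyh1* and chr1:135167632-135167931 (-) for *Gpr37l1*. None of the 3 held a match to the NF-kB, STAT, AP-1, NFI or TATA motifs. A match is a run of letters and not a measured site.
Fabp7: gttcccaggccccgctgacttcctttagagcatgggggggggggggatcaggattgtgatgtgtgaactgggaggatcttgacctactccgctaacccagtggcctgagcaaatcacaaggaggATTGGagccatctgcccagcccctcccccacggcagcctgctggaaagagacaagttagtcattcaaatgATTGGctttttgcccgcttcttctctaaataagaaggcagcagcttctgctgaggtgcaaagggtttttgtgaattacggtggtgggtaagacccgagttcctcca
Ttyh1: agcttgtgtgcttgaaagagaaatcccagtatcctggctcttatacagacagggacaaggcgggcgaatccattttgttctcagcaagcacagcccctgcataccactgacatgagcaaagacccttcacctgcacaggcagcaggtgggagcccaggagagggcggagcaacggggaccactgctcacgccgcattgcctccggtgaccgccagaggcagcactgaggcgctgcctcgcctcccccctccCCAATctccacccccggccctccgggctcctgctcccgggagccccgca
Gpr37l1: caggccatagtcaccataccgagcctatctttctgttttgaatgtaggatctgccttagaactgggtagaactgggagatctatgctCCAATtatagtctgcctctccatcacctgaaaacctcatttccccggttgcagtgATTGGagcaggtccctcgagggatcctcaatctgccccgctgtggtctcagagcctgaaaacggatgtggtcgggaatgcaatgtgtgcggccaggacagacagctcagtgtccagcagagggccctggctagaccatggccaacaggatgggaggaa

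Over the untreated course, against NSPs and from 24 h to 72 h, identity genes were called in both directions, as were all tested genes. At 24 h against NSPs, 8 of 9 genes were called, 4 in each direction, where 52.7% of all tested genes were called, 27.2% as higher and 25.5% as lower. The 72 h cells had 6 calls against NSPs, 3 in each direction (55.3% of all genes, 28.1% higher and 27.2% lower). The 1 week cells also had 6, of which 2 were higher and 4 lower (58.6% of all genes, 29.6% higher and 29.1% lower). The median log2 fold change of the 9 genes against NSPs was 0.10 at 24 h, -0.55 at 72 h and -0.66 at 1 week, and that of all tested genes was 0.06, 0.05 and 0.06. Between 24 h and 72 h 5 of 9 were called, 2 higher and 3 lower (24.8% of all genes, 12.2% higher and 12.6% lower). Between 72 h and 1 week 4 were called, all of them lower (6.63% of all genes, 2.68% higher and 3.96% lower). The last count rested on nearly every library, since it was 1, *Slc14a1*, when any 72 h or 1 week library other than 72 h replicate 1 was left out. The count at 24 h against NSPs was between 4 and 6 without 1 library, at 4 without NSP replicate 1 and without 24 h replicates 1 or 3. Without 1 library, all genes called numbered 8875 to 10219 for 24 h against NSPs and 610 to 1373 for 1 week against 72 h.

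**Figure D2:**
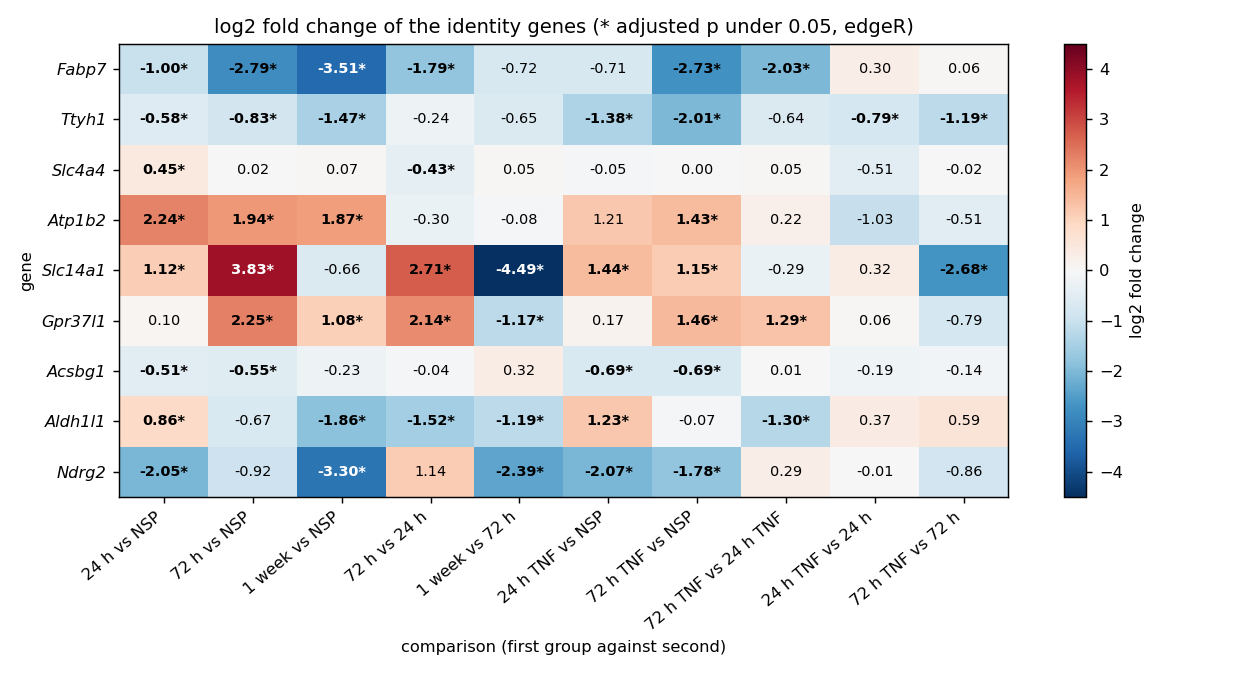
log2 fold change of each identity gene in the 10 comparisons, first condition against second, on a color scale from blue (lower) to red (higher), with a star where the edgeR adjusted p-value was under 0.05. *Fabp7* and *Ttyh1* are blue in all comparisons with NSPs, and *Slc14a1* turns from 3.83 at 72 h against NSPs to -4.49 at 1 week against 72 h.

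*Fabp7*, which carries fatty acids in radial glia and astrocytes, fell from NSPs to 24 h and on to 72 h. Its levels were 2844, 2147 and 2133 CPM in NSPs, 1132, 1369 and 1056 at 24 h, 265, 321 and 446 at 72 h, and 223, 188 and 215 at 1 week. Each of these conditions lay wholly below the one before it. The log2 fold change against NSPs was -1.0 (SE 0.32, adjusted p = 0.0134) at 24 h, -2.79 (SE 0.34, adjusted p = 1.37e-06) at 72 h and -3.51 (SE 0.35, adjusted p = 9.50e-08) at 1 week. The fall from 24 h to 72 h was -1.79 (adjusted p = 4.98e-04), and the step from 72 h to 1 week, at an adjusted p of 0.217, was not past the threshold. Without NSP replicate 1, which held the highest level, the 24 h value was -0.86 with an adjusted p of 0.0516, and the values at 72 h and 1 week remained past the threshold.

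*Acsbg1*, which activates long fatty acids for use in the cell, moved little. It stood at 728, 594 and 607 CPM in NSPs, 435, 510.0 and 414 at 24 h, 347, 478 and 493 at 72 h, and 599.8, 445 and 595 at 1 week. The 24 h and 72 h libraries lay below all NSP libraries, while those at 1 week overlapped with NSPs. Its log2 fold change against NSPs was -0.51 at 24 h (SE 0.19, adjusted p = 0.0305) and -0.55 at 72 h (SE 0.19, adjusted p = 0.0185), and neither was past the threshold without NSP replicate 1 (adjusted p = 0.104 and 0.072). The 24 h call was also lost without 24 h replicates 1 or 3, and the 72 h call without 72 h replicate 1.

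*Aldh1l1*, the folate enzyme widely used to label astrocytes, rose and then fell below its starting level. NSPs held 8.44, 15.1 and 15.3 CPM, 24 h cells 21.9, 26.4 and 22.0, 72 h cells 6.74, 9.26 and 8.42, and 1 week cells 3.22, 3.51 and 4.01. The 24 h libraries were above all others of the untreated course and the 1 week libraries below all others. Against NSPs the log2 fold change was 0.86 at 24 h (SE 0.29, adjusted p = 0.0191) and -1.86 at 1 week (SE 0.32, adjusted p = 6.01e-05). From 24 h to 72 h it was -1.52 (SE 0.30, adjusted p = 9.56e-04) and from 72 h to 1 week -1.19 (SE 0.32, adjusted p = 0.029). The 24 h call was lost without NSP replicate 1 (0.62, adjusted p = 0.0923) or 24 h replicate 2 (0.77, adjusted p = 0.0644), whereas the falls to 1 week against NSPs and to 72 h against 24 h held in all 13 alternatives. The fall from 72 h to 1 week was lost in 6 of 13, 5 of them leaving out 1 library (adjusted p up to 0.136). At 72 h the gene was not past the threshold against NSPs (adjusted p = 0.0663) and passed it without NSP replicate 1 (adjusted p = 0.019).

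*Slc14a1*, the urea transporter, had a narrow peak at 72 h. Its levels were 0.444, 1.54 and 0.967 CPM in NSPs, 2.12, 2.12 and 2.28 at 24 h, 12.2, 16.8 and 13.8 at 72 h, and 0.574, 0.329 and 1.06 at 1 week. The 72 h libraries, with 161, 274 and 251 counts, stood above all others, and those of 1 week, with 13, 6 and 15 counts, overlapped with NSPs. The log2 fold change was 3.83 at 72 h against NSPs (SE 0.42, adjusted p = 3.77e-07), 2.71 at 72 h against 24 h (SE 0.39, adjusted p = 5.17e-05) and -4.49 at 1 week against 72 h (SE 0.44, adjusted p = 6.80e-06). All 3 held without any 1 library. The smaller difference of 1.12 between 24 h and NSPs (adjusted p = 0.042) was lost in 7 of 13 alternatives, the gene was left out by 1 more, and without NSP replicate 1 it was 0.78 (adjusted p = 0.158).

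The other solute carriers differed from it. *Slc4a4*, which brings bicarbonate and sodium across the membrane, held 479.8, 484 and 451 CPM in NSPs, 669, 590.2 and 679 at 24 h, 499.7, 544 and 392 at 72 h, and 474, 544 and 469.6 at 1 week. The 24 h libraries were the ones wholly above NSPs, by a log2 fold change of 0.45 (SE 0.15, adjusted p = 0.019), and 72 h cells were lower than 24 h cells by -0.43 (SE 0.15, adjusted p = 0.0461). Both calls were near the threshold. The first was lost without NSP replicate 3 or 24 h replicates 1 or 3, the second without any of 5 libraries, all but 72 h replicate 2.

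*Atp1b2*, the beta subunit of the glial sodium pump, was higher than in NSPs at each time of the untreated course, with a wide spread. It held 60.0, 67.2 and 41.8 CPM in NSPs, 196, 162 and 442 at 24 h, 312, 197 and 142 at 72 h, and 148, 369 and 99.2 at 1 week. Replicate 3 at 24 h and replicate 2 at 1 week held the highest levels of their conditions, and no library of these 3 times overlapped with NSPs. The log2 fold change against NSPs was 2.24 at 24 h (SE 0.53, adjusted p = 0.00174), 1.94 at 72 h (SE 0.52, adjusted p = 0.00405) and 1.87 at 1 week (SE 0.52, adjusted p = 0.00504). Without 24 h replicate 3 the first was 1.66 (adjusted p = 0.0181). Without 1 week replicate 2 the last was 1.14, with an adjusted p of 0.0644.

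*Ttyh1*, the tweety family protein, was lower than in NSPs at each later time, and NSP replicate 1 stood apart. The NSP values were 472, 998 and 962 CPM, those at 24 h 568, 543 and 512, those at 72 h 402, 509.5 and 459, and those at 1 week 303, 277 and 296. The 1 week libraries lay below all others of the untreated course, while NSP replicate 1 lay below the 24 h libraries. The log2 fold change against NSPs was -0.58 at 24 h (SE 0.21, adjusted p = 0.0294), -0.83 at 72 h (SE 0.22, adjusted p = 0.00315) and -1.47 at 1 week (SE 0.22, adjusted p = 1.36e-05). Without NSP replicate 1 they were -0.86, -1.10 and -1.75, all past the threshold. The steps from 24 h to 72 h and from 72 h to 1 week were not past the threshold (adjusted p = 0.454 and 0.0822). The 24 h call was lost without any of the other 5 libraries of that comparison (adjusted p up to 0.15), and the 72 h and 1 week calls held in all 13 alternatives.

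*Gpr37l1*, the orphan receptor, rose late. It held 32.2, 97.7 and 103 CPM in NSPs, 76.4, 96.3 and 78.2 at 24 h, 286, 436 and 387 at 72 h, and 179.9, 134 and 178 at 1 week. The 24 h libraries lay among the NSP libraries, and all 72 h and 1 week libraries lay above both. The log2 fold change was 2.25 at 72 h (SE 0.35, adjusted p = 2.68e-05) and 1.08 at 1 week (SE 0.34, adjusted p = 0.0111) against NSPs, and 2.14 at 72 h against 24 h (SE 0.35, adjusted p = 1.82e-04). Without NSP replicate 1 the values against NSPs were 1.87 and 0.70 (adjusted p = 5.17e-05 and 0.0434). The fall of -1.17 from 72 h to 1 week (SE 0.34, adjusted p = 0.0439) was lost without any of the 5 libraries other than 72 h replicate 1.

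*Ndrg2*, the NDRG family protein, had the least even NSP libraries. Its levels were 9.58, 70.1 and 66.8 CPM in NSPs, 14.3, 10.8 and 10.3 at 24 h, 20.4, 30.3 and 27.0 at 72 h, and 5.30, 4.60 and 4.93 at 1 week. NSP replicate 1 lay below the 24 h and 72 h libraries, and the 1 week libraries lay below all others of the untreated course. The log2 fold change against NSPs was -2.05 at 24 h (SE 0.65, adjusted p = 0.0134) and -3.30 at 1 week (SE 0.70, adjusted p = 5.06e-04). At 72 h it was -0.92 (SE 0.62, adjusted p = 0.222), which became -1.40 without NSP replicate 1 (adjusted p = 0.0413), and without that replicate the values at 24 h and 1 week were -2.54 and -3.79. Without NSP replicate 2 the 24 h value was -1.71, with an adjusted p of 0.0539. From 24 h to 72 h the difference was 1.14 with no overlap and an adjusted p of 0.222, which was 8.19e-04 with only these groups in the fit. The fall from 72 h to 1 week was -2.39 (SE 0.68, adjusted p = 0.0412) and was lost without any library other than 72 h replicate 1.

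Levels of different genes were set side by side only as RPKM, that is CPM per 1000 bases of exon. In NSPs *Fabp7* stood at 1899 ± 325 RPKM (SD, n = 3), above *Acsbg1* at 178 ± 20.5 and *Ttyh1* at 127 ± 46.0, a pair whose means differed by about 1 SD of *Ttyh1*. *Slc4a4* (43.6 ± 1.64) and *Gpr37l1* (34.3 ± 17.4) overlapped, as did *Ndrg2* (14.4 ± 10.0) and *Atp1b2* (13.8 ± 3.20). *Aldh1l1* (2.86 ± 0.861) and *Slc14a1* (0.246 ± 0.137) were the lowest. At 72 h *Fabp7* (275 ± 74.4 RPKM) was followed by *Gpr37l1* (163 ± 33.9) and *Acsbg1* (122 ± 22.3). The ranges of these last overlapped, while *Gpr37l1* was the higher in each 72 h library (125.8, 192.4 and 170.5 against 96.3, 132.6 and 136.8 RPKM). *Slc14a1*, at 3.57 ± 0.587 RPKM, then lay above *Aldh1l1* at 1.80 ± 0.285. At 1 week *Fabp7* (167 ± 14.4) and *Acsbg1* (152 ± 24.5) differed by less than the SD of *Acsbg1*, and *Atp1b2* (50.3 ± 35.2), *Slc4a4* (45.9 ± 3.89) and *Ttyh1* (45.7 ± 2.12) were not separable. *Slc14a1*, *Aldh1l1* and *Ndrg2* stayed below the other 6 genes in mean in every differentiated condition.

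**Figure D3:**
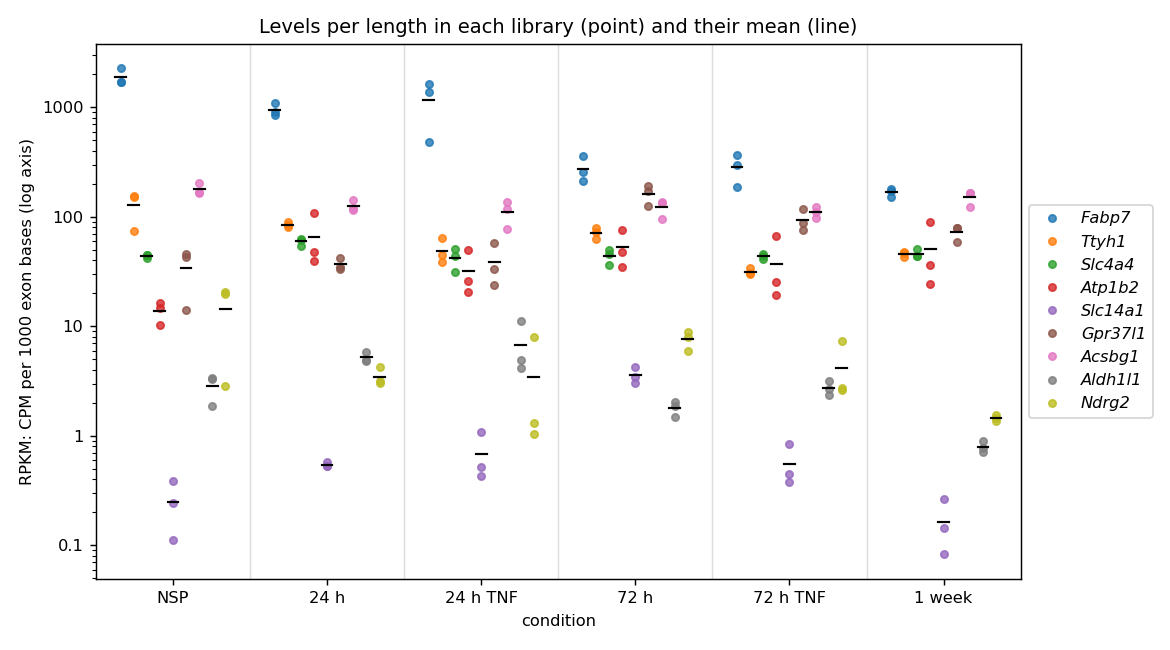
RPKM (CPM per 1000 exon bases, log axis) of the 9 identity genes in the 6 conditions, with a point for each library and a line for the mean. *Fabp7* is the highest in mean in every condition, from 1899 RPKM in NSPs to 167 at 1 week, and *Slc14a1*, *Aldh1l1* and *Ndrg2* form the lowest group in differentiated cells.

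TNF was compared with untreated cells of the same time, which asks whether inflammation alters the course of these genes. At 24 h 1 of the 9 genes was called, *Ttyh1*, lower with TNF, where 3.5% of all tested genes were called, 2.18% as higher and 1.32% as lower. At 72 h 2 were called, *Slc14a1* and *Ttyh1*, both lower (9.56% of all genes, 4.35% higher and 5.21% lower). The other 8 and 7 genes were not past the threshold, which does not show that they were unaltered. The median log2 difference of the 9 genes was -0.01 at 24 h and -0.51 at 72 h, and that of all tested genes was -0.01 at both times. Without replicate 1 of both TNF conditions the medians of the 9 genes were -0.34 and -0.99.

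*Ttyh1* was lower with TNF at both times. At 24 h it held 408, 245 and 284 CPM with TNF against 568, 543 and 512 without, and at 72 h 215, 189.8 and 197 with TNF against 402, 509.5 and 459 without. TNF-treated and untreated libraries did not overlap at either time. The log2 difference was -0.79 at 24 h (95% interval -1.25 to -0.34, adjusted p = 0.0477) and -1.19 at 72 h (95% interval -1.64 to -0.73, adjusted p = 0.00136). The 24 h call was lost in 9 of 14 alternatives, among them a minimum of 10 counts in each library (adjusted p = 0.0633). Without replicate 1 of both TNF conditions the differences were -1.04 and -1.25, both past the threshold, and the 72 h call held in all 14 alternatives.

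*Slc14a1* lacked its 72 h peak in the TNF-treated cells. At 72 h it held 3.32, 1.80 and 1.50 CPM with TNF (59, 31 and 24 counts) against 12.2, 16.8 and 13.8 without, and at 24 h 4.35, 2.09 and 1.71 with TNF against 2.12, 2.12 and 2.28. The groups did not overlap at 72 h and overlapped at 24 h. The log2 difference at 72 h was -2.68 (SE 0.38, 95% interval -3.49 to -1.88, adjusted p = 1.38e-04), and it was -3.11 without replicate 1 of both TNF conditions. The 24 h interval ran from -0.53 to 1.18. The difference between these TNF effects, tested as an interaction in edgeR, was -3.01 (SE 0.56, adjusted p = 0.0212), where 0.458% of all genes were called, 0.135% with a higher and 0.324% with a lower effect at 72 h. This call was lost in 9 of 20 alternatives, 8 of them leaving out 1 library, and the gene was left out by 1 more, with adjusted p-values up to 0.104. None of the other 8 genes was called for the interaction.

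Of the genes not called, 3 came nearest. *Slc4a4* held 338, 549 and 478 CPM at 24 h with TNF against 669, 590.2 and 679 without, with no overlap and a log2 difference of -0.51 (95% interval -0.83 to -0.18, adjusted p = 0.0846). With DESeq2 its adjusted p was 0.0384. *Gpr37l1* held 268, 173 and 201 CPM at 72 h with TNF against 286, 436 and 387 without, also with no overlap, and a log2 difference of -0.79 (95% interval -1.49 to -0.09, adjusted p = 0.149). With only these groups in the edgeR fit its adjusted p was 0.0416. *Aldh1l1* was the member of the 3 with higher values, at 14.3, 10.6 and 12.1 CPM against 6.74, 9.26 and 8.42 at 72 h, an adjusted p of 0.225 and no overlap.

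The remaining genes overlapped with untreated cells at both times. *Fabp7* held 606, 2025 and 1736 CPM at 24 h and 234, 462 and 376 at 72 h, replicate 1 being the lowest each time. *Ndrg2*, *Atp1b2* and *Aldh1l1* had their highest 24 h TNF value in replicate 1, at 27.0, 202 and 50.2 CPM against at most 4.40, 105 and 22.1 in replicates 2 and 3. In the 72 h TNF cells *Atp1b2* held 273, 79.0 and 104 CPM and *Ndrg2* 24.7, 9.23 and 8.82, again highest in replicate 1. Without replicate 1 of both TNF conditions the log2 difference of *Ndrg2* went from -0.01 to -1.58 at 24 h and from -0.86 to -1.53 at 72 h, and that of *Atp1b2* from -1.03 to -1.50 and from -0.51 to -1.25. None of these passed the threshold (adjusted p of 0.0683 to 0.158 without those libraries). *Acsbg1*, at 279.9, 423 and 489 CPM at 24 h and 403, 352 and 443 at 72 h, had a 95% interval of the TNF effect from -0.58 to 0.20 at 24 h and from -0.53 to 0.25 at 72 h.

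**Figure D4:**
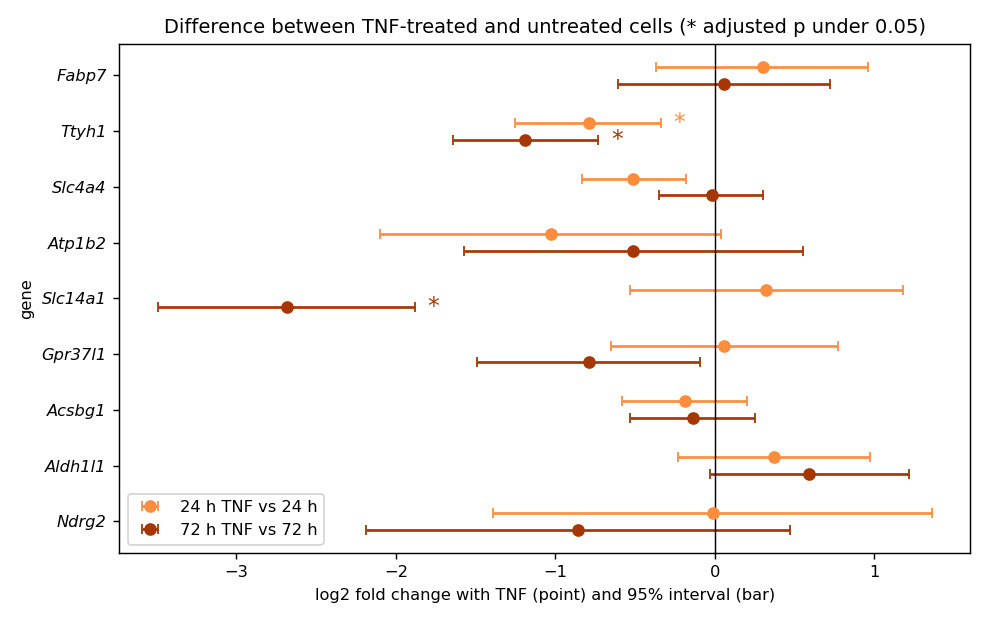
log2 fold change of TNF-treated against untreated cells (x axis) for the 9 identity genes at 24 h (light) and 72 h (dark), with points for edgeR's estimate, bars for 95% intervals and stars for an adjusted p-value under 0.05. Stars mark *Ttyh1* at both times and *Slc14a1* at 72 h, at -2.68, and the bars of *Ndrg2* and *Atp1b2* are the widest.

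TNF-treated cells were also set against NSPs and against each other. At 24 h with TNF 5 of 9 genes were called against NSPs, 2 of them higher and the rest lower (54.5% of all tested genes, 28.2% higher and 26.3% lower). At 72 h with TNF 7 were called, 3 of them higher and 4 lower (61.9%, 31.7% higher and 30.1% lower). From 24 h to 72 h with TNF 3 genes were called, 1 of them higher (13.3%, 5.38% higher and 7.93% lower). These comparisons share their NSP libraries with the untreated ones, so their values are given side by side. *Fabp7* changed from NSPs by -2.73 with TNF (adjusted p = 1.62e-06) and by -2.79 without at 72 h. *Gpr37l1* changed by 1.46 with TNF (adjusted p = 0.00125) and by 2.25 without, *Ttyh1* by -2.01 (adjusted p = 4.35e-07) and -0.83, and *Slc14a1* by 1.15 (adjusted p = 0.0293) and 3.83. The 72 h TNF value of *Slc14a1* was 0.81 without NSP replicate 1 (adjusted p = 0.124) and 0.73 without replicate 1 of both TNF conditions (adjusted p = 0.123), and that of *Atp1b2* fell from 1.43 (adjusted p = 0.0224) to 0.70 (adjusted p = 0.196) in the latter case. *Atp1b2* at 24 h with TNF was not past the threshold against NSPs (adjusted p = 0.0544). Without replicate 1 of both TNF conditions *Slc14a1* lost its call at 24 h with TNF (adjusted p = 0.0656), and *Slc14a1* and *Atp1b2* lost theirs at 72 h. Without NSP replicate 3 *Slc14a1*, *Ndrg2* and *Atp1b2* lost their 72 h calls. All genes called at 72 h with TNF against NSPs numbered 11513 to 12205 when any 1 library was left out.

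Within the TNF-treated cells, *Fabp7* was lower at 72 h than at 24 h by -2.03 (SE 0.33, adjusted p = 5.41e-04) and *Aldh1l1* by -1.30 (SE 0.29, adjusted p = 0.00613). *Gpr37l1* was higher, at 1.29 (SE 0.34, adjusted p = 0.0172). Untreated cells had changes of -1.79, -1.52 and 2.14 over the same interval. The groups did not overlap for any of these 3 genes. Without 24 h TNF replicate 1, which held the highest *Aldh1l1* level, the *Aldh1l1* value was -0.69 (adjusted p = 0.0382). With only these groups in the fit the calls of *Aldh1l1* (adjusted p = 0.0761) and *Gpr37l1* (0.0532) were lost. The *Gpr37l1* call was lost without 24 h TNF replicates 2 or 3 or 72 h TNF replicate 1 (adjusted p = 0.101, 0.0803 and 0.0561). *Ndrg2*, not past the threshold with all libraries (adjusted p = 0.832), was higher at 72 h than at 24 h with TNF by 1.89 without 24 h TNF replicate 1 (adjusted p = 0.0411).

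Other genes by which astrocytes are known gave the setting. Of a list of 32 such genes 31 were tested. From 24 h to 72 h without TNF 7 were higher and 5 lower (12.2% and 12.6% of all tested genes), led by *Clu* (clusterin) at a log2 fold change of 3.45, *Chrdl1* (a BMP antagonist) at 3.44 and *Gpld1* (a phospholipase) at 2.35, and with *Bcan* (brevican of the extracellular matrix) at -1.22 and *Slc6a11* (a GABA transporter) at -0.78 among those that were lower. *Clu* rose from 73.7 ± 6.34 to 803 ± 129 CPM (SD, n = 3, adjusted p = 9.18e-09). At 72 h with TNF 10 were lower than without and 1 was higher, with a median of -0.50 over the 31 (4.35% of all tested genes higher, 5.21% lower). The largest falls were those of *Gfap* at -2.31 (489 ± 461 against 2432 ± 673 CPM, adjusted p = 0.0128), *Ntsr2* (a neurotensin receptor) at -1.80 and *S100b* (a calcium-binding protein) at -1.64, and *Glul* (glutamine synthetase) rose by 0.54 (adjusted p = 0.0178).

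Against NSPs, 7 of the 31 genes rose and 13 fell by 24 h, where 27.2% of all tested genes were higher and 25.5% lower. By 72 h 10 stood above NSPs and 15 below (28.1% and 27.2% of all genes), and by 1 week 7 above and 14 below (29.6% and 29.1%). Between 72 h and 1 week 4 rose and 11 fell (2.68% and 3.96% of all genes), with a median of -0.41 where the identity genes had -0.72 and all tested genes lay at about 0. At 24 h 6 were lower and 1 was higher with TNF than without (1.32% and 2.18%). In TNF-treated cells 5 stood above NSPs and 17 below at 24 h (28.2% and 26.3%), and 8 above and 16 below at 72 h (31.7% and 30.1%). From 24 h to 72 h with TNF 3 rose and 3 fell (5.38% and 7.93%). The interaction of TNF and time was called for 3, all with a lower effect at 72 h, *Chrdl1*, *Clu* and *S100b* (0.324% of all genes with a lower effect). All 8 cell cycle genes were lower than in NSPs at each time. Of 10 neural stem cell and radial glia genes 2 stood above NSPs and 7 below at 72 h, and at 1 week 0 above and 7 below. The filament gene *Vim* was one of those higher at 72 h (0.69, adjusted p = 6.38e-04), and the filament gene *Nes* was not past the threshold at either time (adjusted p = 0.0629 and 0.291). The summed level of the 10 genes ranged from 7857 to 9203 CPM in NSPs, from 5659 to 6539 at 72 h and from 4701 to 5291 at 1 week. Of 8 NF-kB target genes the summed level ranged from 22.6 to 38.8 CPM without TNF and from 202 to 238.5 CPM with it.

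**Figure D5:**
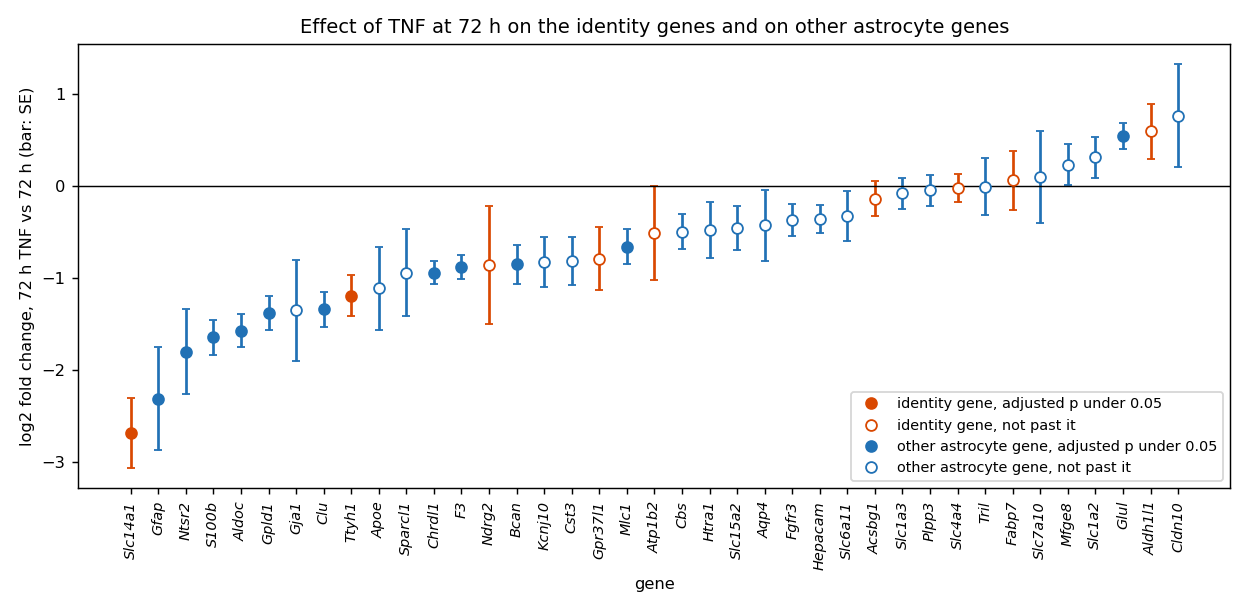
log2 fold change of 72 h TNF against 72 h cells for the 9 identity genes (orange) and 30 of the 31 tested genes of the other astrocyte list (blue), ordered by size, with bars for the SE and filled points for an edgeR adjusted p-value under 0.05. *Slc14a1* has the lowest value of the 39 genes drawn at -2.68, *Gfap* the next at -2.31, and most of the other identity genes are open points nearer to 0.

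The genes most like each member over the 18 libraries were found among 10757 protein-coding genes by Pearson's r of log2 CPM. The 18 points share conditions and library differences, so r is a description. *Fabp7* was closest to *Dock10* (r = 0.984) and *Gnai1* (0.978), *Gpr37l1* to *Fxyd1* (0.971) and *Cnp* (0.969), and *Atp1b2* to *Zfp703* (0.969) and *Slc25a23* (0.968). For *Acsbg1* the closest were *Cox18* (0.948) and *Foxred1* (0.942), for *Slc14a1* *Stom* (0.942) and *Scg3* (0.920), for *Ttyh1* *Adcyap1r1* (0.940) and *Slc30a10* (0.922), and for *Aldh1l1* *Cdh19* (0.932) and *Pxdn* (0.929). *Ndrg2* had its highest r with *Kcnn2* (0.910) and *Nnat* (0.899), and *Slc4a4*, whose level varied least, with *Zfp462* (0.797) and *D630045J12Rik* (0.790). No identity gene was among the closest 2 of another.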

How the data were processed

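The 18 stranded libraries were made from total RNA after removal of ribosomal RNA. The study gives a wide range of RNA quality scores, and which libraries had the low ones was not stated. The part of RNA quality in the results was not tested. The authors ran FastQC, Trim Galore, STAR, SAMtools and featureCounts, in that order, and the deposited values are raw counts per gene. The submitters' processing notes name mm10. Tool versions, the strand setting and the treatment of ambiguous reads are not given in the sources used here. Counts of 54838 genes were used, 54809 of them with an identifier in GENCODE M21. Totals ran from 12509693 to 22549627 per library. Molecular identifiers are not described in the sources used here, so depth speaks for counting error only. Every pair of replicates differed beyond counting noise (a chi-square of 3.71 to 55.4 per degree of freedom), and none was counted as a duplicate.

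In edgeR (version 4.0.16, limma 3.58.1, R 4.3.3) TMM factors and edgeR's filter by condition were used, and the quasi-likelihood test was run on a model of 6 condition means over all 18 libraries, for 10 comparisons and the interaction of TNF and time. The p-values were adjusted over the 20067 tested genes by Benjamini and Hochberg, at a threshold of 0.05. The SE is the size of the log2 fold change over the square root of F. RPKM is CPM per 1000 bases of the union of a gene's exons, and log2 CPM had 2 added as prior count. Python 3.11.15 was used for summaries. The 9 genes and the other gene lists were chosen with earlier results of these data known. The text names the 9 genes, list members, for 2 comparisons the 3 other astrocyte genes with the largest called change in each direction, and for each of the 9 the 2 protein-coding genes of at least 5 CPM on average with the highest r. The values of 1 other astrocyte gene are not reported here.

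Alternatives were DESeq2 (version 1.42.0), RLE factors, at least 10 counts in every library, at least 5 counts in total, a fit of the compared groups alone, replicate number as a block, and leaving out each library. Leaving out replicate 1 of both TNF conditions was added after the data were seen. Replicate numbers come from the labels, though the table's column of 72 h replicate 3 carries another number, and a block without it was also fitted. The deviations of same-numbered libraries correlated at r over 0.1 in all 3 pairs for 72 h TNF against 24 h TNF (0.291, 0.255 and 0.266 across genes) and for no other comparison. There the block left the calls of the 9 genes as they were.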

Additional observations from a re-analysis of the deposited data

Results flagged for a closer look

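The effect of TNF on *Slc14a1* differed between the times in a test of the difference itself. The log2 effect was -2.68 at 72 h, its 95% interval at 24 h ran from -0.53 to 1.18, and the interaction term in edgeR was -3.01 (95% interval -4.17 to -1.84, adjusted p = 0.0212 over all tested genes). The TNF-treated libraries were lower than all untreated ones at 72 h, while at 24 h replicate 1 with TNF, at 4.35 CPM, lay above them and replicates 2 and 3, at 2.09 and 1.71 CPM, lay below. Over the alternatives that kept the gene, the interaction ranged from -3.42 to -2.45 and its adjusted p from 4.62e-05 to 0.104.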

How the results depend on the processing

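Of 99 values of the 9 genes (9 genes in 10 comparisons and the interaction), 48 passed the threshold in edgeR. Of these 0 changed sign under any alternative that was run, 26 stayed past the threshold in every alternative that kept the gene, and 22 lost the threshold in at least 1. Of 43 values that missed it and are not given as fold changes in the text, 27 changed sign in at least 1 alternative, with 0 of them past the threshold there, and 7 passed it in at least 1 with their sign kept. The 24 h TNF difference of *Ndrg2*, -0.01 and not past the threshold, ranged from -1.59 to 0.42 without 1 library and was 0.00 with only the groups compared in the fit. With at least 10 counts in every library, which leaves out *Slc14a1*, the number of the 9 genes called was 5 for 24 h against NSPs, 1 for 1 week against 72 h, 0 for 24 h TNF against 24 h, 1 for 72 h TNF against 72 h and 0 for the interaction, which was then called for 56 genes in all. In these comparisons, the interaction apart, the number of all genes called moved by no more than a factor of 1.5. With only the groups compared in the fit, all called genes numbered 2001 for 1 week against 72 h, 1277 for 72 h TNF against 72 h, 38 for the interaction and 828 for 72 h TNF against 24 h TNF. The identity genes called were then 1 for 72 h TNF against 24 h TNF and 0 for 24 h TNF against 24 h. DESeq2 called 2 identity genes for 24 h TNF against 24 h (*Ttyh1* and *Slc4a4*) and 244 genes for the interaction. In these fits all genes called for 24 h TNF against 24 h stayed within a factor of 1.5 of the 703 of the reported fit.

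The replicate number as a block called 0 identity genes for 24 h TNF against 24 h (*Ttyh1*, adjusted p = 0.0739). It also lost *Slc14a1* for 24 h against NSPs (adjusted p = 0.0544) and *Gpr37l1* for 1 week against 72 h (0.063), gained *Fabp7* for 24 h TNF against NSPs (0.0351), and changed no other call of the 9 genes. Outside 72 h TNF against 24 h TNF, the correlation of same-numbered libraries lay between -0.416 and 0.303 and was not over 0.1 in every pair, so the numbers were not taken to pair them. With 72 h replicate 3 unpaired in the block, the genes called were 3286 for 72 h against 24 h, 617 for 1 week against 72 h, 986 for 72 h TNF against 72 h and 24 for the interaction, and the identity genes called 1 for 1 week against 72 h, 0 for 24 h TNF against 24 h and 0 for the interaction.

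Leaving out 1 library gave 4 to 6 identity genes for 24 h against NSPs, 1 to 4 for 1 week against 72 h, 4 to 6 for 72 h TNF against NSPs, and 0 to 1 both for TNF at 24 h and for the interaction. All genes called were 610 to 1373 for 1 week against 72 h, 1233 to 3802 for 72 h TNF against 24 h TNF, 360 to 741 for 24 h TNF against 24 h, 965 to 2922 for 72 h TNF against 72 h and 25 to 133 for the interaction. They were 8875 to 10219 for 24 h against NSPs and 11513 to 12205 for 72 h TNF against NSPs. The cause of these shifts was not tested. With 3 libraries per condition, counts of 6 to 38 in NSPs, at 24 h and at 1 week limit what can be said of *Slc14a1* there.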

Other observations

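The promoter windows of the identity genes differed in base composition. Those of *Fabp7*, *Gpr37l1* and *Ttyh1* held 54%, 53.7% and 63.3% G and C and 6, 7 and 14 CpG pairs, where the median of all RefSeq windows was 52.7% and 7 pairs. Of the 2 windows of *Slc4a4*, 1 held 80% G and C with 50 CpG pairs and the other 48.3% with 3.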
